A study of Canis lupus familiaris with 36 samples.

Results

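Ibrutinib plus AS-605240 (Ibr + AS) was compared with its solvent DMSO after 48 h in CLBL-1, a cell line from a dog with diffuse large B-cell lymphoma. The 3 Ibr + AS libraries and the 3 DMSO libraries of that time, 6 of the 36 libraries of the series, were chosen by treatment and time alone and paired by the passage of the culture. The study treated CLBL-1 of 3 passages, here replicates 1, 2 and 3, with DMSO, 1 µM Ibrutinib (Ibr), 5 µM AS-605240 (AS) or both for 24, 48 or 72 h and sequenced poly-A RNA. Both groups compared here carried the same amount of DMSO, and neither inhibitor was in the control wells. All replicates are passages of 1 line, so p-values do not measure the spread between dogs. They rest on the spread left within the 12 groups once mean differences between passages are removed, estimated over 35 libraries. In RNA of whole cultures, fewer cells of a kind and less RNA per cell cannot be told apart.

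Antigen binding to the B-cell receptor recruits kinases that activate Bruton's tyrosine kinase (BTK) and phosphoinositide 3-kinase (PI3K), which feed the NF-kappaB, NFAT and AKT-mTOR pathways and thereby growth, survival and metabolism of B cells. Ibrutinib binds BTK covalently, and AS-605240 competes with ATP at PI3K, with a preference for the gamma isoform. When AKT is inactive, FOXO transcription factors stay in the nucleus and switch on their target genes.

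Between 11057415 and 13043278 reads per library fell on genes, and 18670 genes were tested. Levels are given as CPM, the reads of a gene scaled to a common library size with TMM factors, and were not compared between genes, since transcript lengths were not used. A differentially expressed gene (DEG) has a Benjamini-Hochberg adjusted p of at most 0.05 in edgeR's quasi-likelihood test with passage as a term and a log2 fold change (FC) above 1 or below -1. The words rose and fell mark an adjusted p of at most 0.05 alone. The 50 most abundant genes took 21.4 to 22.9% of the reads with Ibr + AS and 16 to 17.6% with DMSO, so the libraries differed in composition as well. The B-cell genes DLA-DRA, DLA-DQA1, DLA-DMA, TNFRSF13C and TCF4 were expressed in all 6 libraries, whereas NFAM1 had no read. Among T or NK cell markers, IL2RB and IL4 had no read in the 6 libraries and TCF7, IFNG, IL5 and IL13 stayed below 1 CPM.

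DEGs made up 7.69% of the genes, 4.86% higher and 2.82% lower. Of the 1435 DEGs, 1412 (98.4%) had the same direction in all 3 pairs of libraries, which the call on these pairs largely fixes. The median log2 FC was 1.55 over the 908 higher and -1.45 over the 527 lower DEGs, and 312 of the higher and 137 of the lower DEGs changed by more than 2 on the log2 scale. By adjusted p alone, 30.8% of the genes changed, 15.4% upward and 15.3% downward. Among the 10815 genes whose mean over the 6 libraries reached 1 CPM, these shares were 49.6%, 24.1% and 25.5%. Gene lists below are set beside all genes, and these higher shares are the stricter background for expressed members. Only 66 DEGs have a symbol in the sources used here, 35 higher and 31 lower, so the genes named below are a small share of the response. Symbols were at hand only for the given parts of the study's supplementary tables. The gene lists below therefore hold only a part of each pathway and are no random draw from it.

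**Figure D1:**
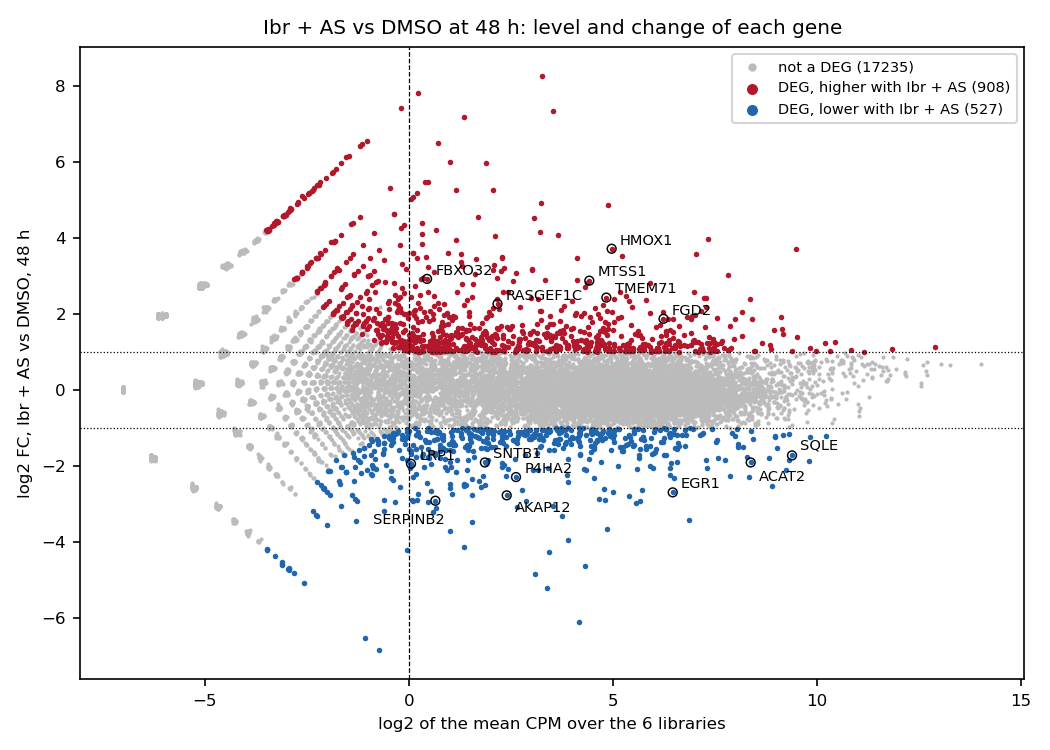
Each point is 1 of 18670 genes, with the log2 of its mean CPM over the 6 libraries on the horizontal axis and its log2 FC between Ibr + AS and DMSO at 48 h on the vertical axis. Red and blue points are the 908 higher and 527 lower DEGs, dotted lines mark a log2 FC of 1 and -1, and HMOX1 and EGR1 are among the circled genes with a symbol and a mean of at least 1 CPM.

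Among DEGs with a symbol, a mean of 1 CPM or more and 1 direction in all replicates, HMOX1 rose most. It encodes heme oxygenase 1, which breaks down heme and is induced by oxidative stress. HMOX1 (ENSCAFG00000001711) had 74.1, 51.8 and 48.8 CPM with Ibr + AS in replicates 1, 2 and 3, and 3.86, 5.11 and 4.24 CPM with DMSO. The groups lay far apart, and the log2 FC was 3.71 (standard error 0.35, adjusted p = 1.14e-08). SQSTM1, the autophagy receptor p62, which also stabilizes the antioxidant regulator NRF2, was the other DEG of the oxidative stress list. Its levels were 217, 231 and 222 CPM with the inhibitors and 112, 96.6 and 105 CPM without, which is 1.10 on the log2 scale (standard error 0.10, adjusted p = 5.33e-17). Without the pair of replicate 2 the log2 FC of SQSTM1 was 1.00 and no longer past the limit on size. The list as a whole did not follow these 2 genes: of 14 members, 2 rose and 5 fell, 14.3% and 35.7% against 15.4% and 15.3% of all genes, with a median log2 FC of -0.18. SOD2, the mitochondrial superoxide dismutase, fell by 0.79 on the log2 scale, ACO1, which senses iron, by 0.67, FECH, the last enzyme of heme synthesis, by 0.56 and TSPO by 0.44. TSPO was 12.6, 18.2 and 20 CPM against 23.1, 21.3 and 24.3 CPM, and its call was lost without replicate 1 (log2 FC -0.27).

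Other strongly raised genes act on the cytoskeleton, the membrane and the ubiquitin system. MTSS1, which bends membranes and binds actin, had 36.8, 41.0 and 35.3 CPM against 4.58, 5.18 and 5.62 CPM in DMSO. TMEM71, a membrane protein, reached 41.4, 55.3 and 48.1 CPM against 8.68, 9.09 and 9.09 CPM. FBXO32, a ubiquitin ligase subunit known as a FOXO target in muscle, had 2.33, 2.03 and 2.86 CPM against 0.402, 0.225 and 0.308 CPM, which is 3 to 5 reads per DMSO library. In all 3 genes the groups were separate in every passage, with log2 FC of 2.87, 2.43 and 2.92. The remaining genes of the 14 that rose most by the same limits were RASGEF1C and FGD2, both exchange factors of small GTPases (log2 FC 2.27 and 1.87), the Golgi protein GOLM1 (1.69), KCP (1.53), the mTOR inhibitor DEPTOR (1.49), the palmitoyltransferase ZDHHC14 (1.49), the kinesin KIFC2 (1.48), the phospholipase PLA2G6 (1.46), MRNIP of the DNA damage response (1.40) and the pore-forming protein GSDMD (1.30). None of these 14 genes had overlapping groups, against 20.1% of all genes with higher non-overlapping groups, but the genes were picked by this very contrast.

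The genes that fell most by the same limits include an immediate early gene, a scaffold protein and enzymes of sterol and collagen synthesis. SERPINB2, an inhibitor of plasminogen activators, had 0.359, 0.194 and 0.505 CPM with the inhibitors, which is 2 to 6 reads per library, against 2.41, 3.08 and 2.85 CPM with DMSO (log2 FC -2.91, standard error 0.37). AKAP12, which tethers protein kinases A and C, had 0.986, 1.07 and 1.94 CPM against 7.95, 8.79 and 10.9 CPM (-2.77, standard error 0.23). Both were lower in each passage by more than the spread of either group.

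EGR1, a transcription factor induced within minutes of antigen receptor signalling, differed between passages as much as between treatments. It had 59.2, 4.65 and 11.6 CPM with Ibr + AS and 283, 84.0 and 87.8 CPM with DMSO, so both libraries of replicate 1 were high. Within passages the log2 differences were -2.26, -4.15 and -2.91, and the log2 FC was -2.69 (standard error 0.56, adjusted p = 0.000545). NAB2, a corepressor that EGR1 induces and binds, fell by 1.26 on the log2 scale, from 24.4, 22.5 and 26.5 CPM in DMSO to 9.06, 10.7 and 11 CPM. For EGR1 a fit of the 6 libraries alone gave -2.83 without passing the test, while NAB2 kept its call there. The other genes among the 15 that fell most were P4HA2, LRP1, SNTB1, ACAT2, SQLE, ATP8B1, BEND4, TCP11, GJA1, RGS22 and PTK2, with log2 FC from -2.29 for P4HA2 to -1.29 for PTK2. Their groups did not overlap either, against 19.6% of all genes with lower non-overlapping groups. Of these, LRP1 had 5, 2 and 7 reads and TCP11 had 7, 6 and 4 reads with Ibr + AS, so both rest on a few reads per library. In replicate 3 the log2 difference of LRP1 was -0.88.

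**Figure D2:**
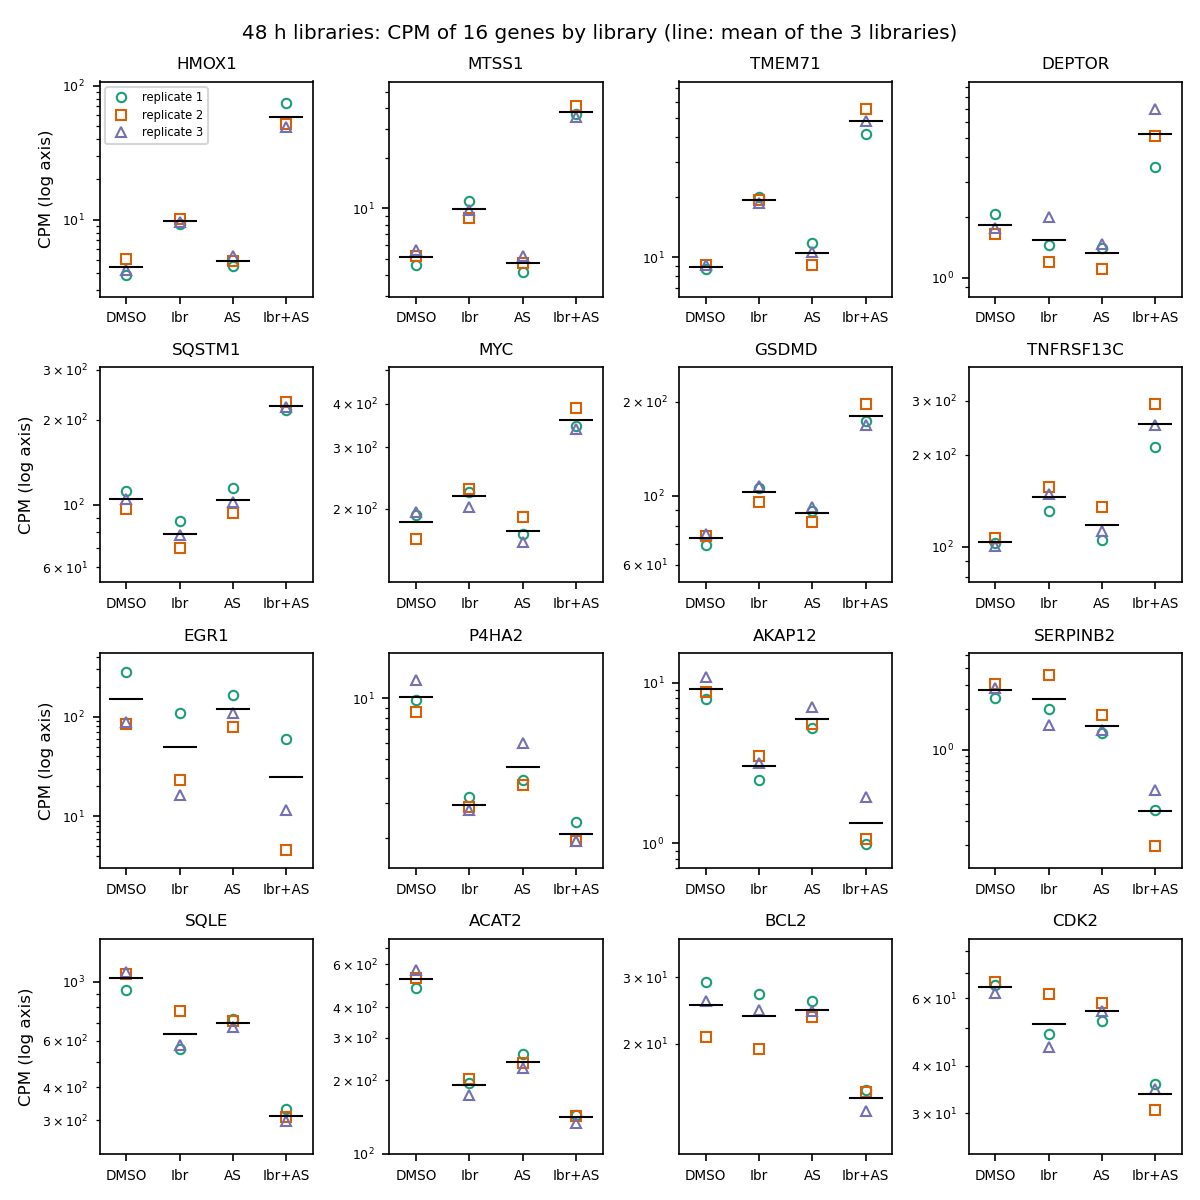
CPM on a log axis of 16 genes in the 12 libraries of 48 h, by treatment, with 1 symbol per replicate and a line at the mean of each group of 3. The 3 Ibr + AS values of HMOX1 (48.8 to 74.1 CPM) and SQLE (299 to 332 CPM) lie apart from those of the other 3 treatments, and in EGR1 replicate 1 is the highest of each group.

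Genes without a symbol changed more. ENSCAFG00000042931 had 160, 226 and 247 reads with Ibr + AS and 1, 1 and 0 reads with DMSO, at least 81.7-fold higher when DMSO is set to 3 counts per library. ENSCAFG00000019278 had 30, 27 and 20 reads against 0 in each DMSO library, at least 10-fold higher. In the other direction, ENSCAFG00000014490 had 0.359, 0.484 and 0.673 CPM against 24.7, 34.2 and 47.7 CPM with DMSO (log2 FC -6.09, standard error 0.40). ENSCAFG00000011762 had 0.628, 0.387 and 0.589 CPM against 16.9, 18.3 and 25.7 CPM (log2 FC -5.21, standard error 0.36). These changes are far beyond the spread between passages.

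Of the signalling genes next to the targets of the inhibitors, those listed here changed little, with single exceptions. Of 19 genes of B-cell receptor, NF-kappaB and NFAT signalling, 3 rose and 1 fell, which is 21.1% against 30.8% of all genes, and the median log2 FC was -0.02. TNFRSF13C, the receptor for the survival factor BAFF, was the only DEG among them, with 212, 293 and 251 CPM against 104 ± 2.98 CPM (SD, n = 3) in DMSO (log2 FC 1.27, standard error 0.10, adjusted p = 2.49e-19). The GTPase gene RAC2 rose by 0.68 and the cytokine gene LTA by 0.37, while TNFAIP3, a brake on NF-kappaB, was at -0.44. The calls of LTA (0.24) and TNFAIP3 (-0.35) were lost without replicate 3. NFATC1 (-0.21, adjusted p = 0.124), the lipid phosphatase gene INPP5D (-0.23, adjusted p = 0.0542) and MALT1 (0.13, adjusted p = 0.705) did not pass the test.

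Of 18 genes of the PI3K, AKT, mTOR and FOXO axis, 6 rose and 2 fell and the median log2 FC was 0.05. By adjusted p this is 44.4%, above the 30.8% of all genes but below the 49.6% of those at 1 CPM or more. The 4 DEGs are 22.2%, against 7.69% and 9.7%. Besides FBXO32, the DEGs were DEPTOR, KLF10 and PTCH1. DEPTOR had 3.59, 5.13 and 6.98 CPM against 2.09, 1.65 and 1.77 CPM, a rise in each passage that was smallest in replicate 1. PTCH1, the Hedgehog receptor, had 8.88, 8.33 and 9.26 CPM against 23.9, 17.4 and 19.3 CPM (log2 FC -1.19, standard error 0.15). RPS6, whose protein is phosphorylated downstream of mTOR, rose by 0.54 and TFEB, a regulator of lysosome genes that mTOR holds in the cytoplasm, by 0.47. SGK1, a kinase activated by PI3K, fell by 0.68 on the log2 scale, a call that was lost without replicate 2. PIK3R1, 1 of several regulatory subunits of PI3K, had 68.3, 60.9 and 62.8 CPM against 64.2, 56.7 and 57.7 CPM (log2 FC 0.11, adjusted p = 0.478). It does not stand for the others. The paper names PIK3R5 and PIK3R6 as partners of the gamma isoform and gives both as higher with Ibr + AS at 48 h, and PIK3R3 as lower. These genes are not in this list. KLF10 had 224, 53.3 and 80.5 CPM against 63.6, 35 and 44.2 CPM, so that its groups overlapped and replicate 1 was again the highest in both. Without replicate 1 its log2 FC was 0.74 and its call was lost.

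Genes of survival and growth moved in both directions: 3 of 12 rose and 3 fell, with a median of -0.11. That is 50% in all, against 30.8% of all genes but near the 49.6% of those at 1 CPM or more. MYC, the growth regulator, had 345, 389 and 339 CPM against 192, 164 and 196 CPM (log2 FC 0.96, standard error 0.10, adjusted p = 1.42e-14), just under the limit on size. PIM1, a survival kinase, rose by 0.68, and GSDMD had 174, 196 and 169 CPM against 69.3, 74.0 and 75.5 CPM. BCL2, which blocks apoptosis, had 15.1, 14.9 and 13.3 CPM against 29.2, 20.9 and 26 CPM, which is -0.81 on the log2 scale (standard error 0.12, adjusted p = 3.51e-08). MYB, a regulator of immature blood cells, fell by 0.79 and the death-associated kinase gene DAPK1 by 0.86 on the log2 scale. The 3 members that rose and the 3 that fell had no overlap between groups, which their call by this contrast largely fixes. Of all genes, 20.1% had higher and 19.6% lower non-overlapping groups. Without replicate 1 the members that fell numbered 5.

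Genes of the cell cycle and of DNA replication fell by small amounts but in large number. Of 29 members, 19 fell and 2 rose, against 15.3% and 15.4% of all genes, and the median log2 FC was -0.46 against 0.01 over all genes tested. CDC25C, the phosphatase that starts mitosis, had 21.8, 18.7 and 18.8 CPM against 36.5, 44.4 and 48.1 CPM (log2 FC -1.12, standard error 0.11, adjusted p = 7.24e-15). CDK2, a kinase of S phase entry, had 35.7, 30.5 and 34.8 CPM against 64.8, 66.1 and 62.0 CPM (-0.93). TONSL, which repairs stalled replication forks, fell by 1.02, just past the limit on size (-0.99 without replicate 3), and ATAD2, a chromatin ATPase, by 0.81 on the log2 scale. CCND3, a D-type cyclin, ran the other way with 565, 644 and 617 CPM against 389, 410 and 365 CPM (log2 FC 0.65), and MCM9 was at 0.29, a call that was lost without replicate 2 (0.30) and without replicate 3 (0.22).

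Ribosomal protein genes and genes of ribosome assembly, 1 list of 21 members, parted by their names, a division made after their values were seen. All 7 ribosomal protein genes (RPL3, RPL8, RPL10A, RPS6, RPS10, RPS12 and RPS18) rose, by 0.26 to 0.72 on the log2 scale with a median of 0.54. RPL8 had 6450, 8510 and 7730 CPM against 4540, 4900 and 4840 CPM, and RPL10A had 1020, 1270 and 1180 CPM against 678, 721 and 700 CPM. The smallest change, that of RPL3, lost its call without replicate 2 (0.22) or replicate 3 (0.25). Of the other 14 genes 8 fell and 2 rose, with a median of -0.27. Over the whole list 42.9% rose and 38.1% fell, against 15.4% and 15.3% of all genes. PWP1, needed for transcription of ribosomal RNA, fell by 0.72, RRP7 by 0.54, PA2G4 by 0.44 and NUDCD1 by 0.42, whereas BYSL, which matures the small subunit, rose by 0.61. The members that fell numbered 5 in place of 8 without replicate 2 and also without replicate 3. Ribosomal protein genes have many pseudogene copies, so their reads are the less certain ones. The share of the reads in the 50 most abundant genes, given above, moved with the groups too, and its part in this result was not tested. RLE factors in place of TMM moved the log2 FC of the typical gene by 0.02 and changed the sign of 0 list members past the adjusted p limit.

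Genes of amino acid supply and tRNA charging only fell: 9 of 15 (60%, against 15.3% of all genes), with a median log2 FC of -0.30, and 0 rose. NARS1, which charges the tRNA of asparagine, had 136, 111 and 114 CPM against 219, 214 and 206 CPM (log2 FC -0.83, standard error 0.09). MARS1, the methionine counterpart, fell by 0.70, PSAT1 of serine synthesis by 0.69 and the tRNA exporter XPOT by 0.57 on the log2 scale. The members that fell numbered 5 without replicate 3. Of 18 genes of mitochondrial energy metabolism 8 fell and 2 rose (median -0.25), which is 44.4% and 11.1% against 15.3% and 15.4% of all genes. TFB1M fell by 0.77, CHCHD3 by 0.48, VDAC1 by 0.42 and the citrate synthase gene CS by 0.34, but NDUFA6 of complex I had 175, 244 and 214 CPM against 97.9, 113 and 109 CPM (log2 FC 0.98, standard error 0.15). NDUFB9, also of complex I, rose by 0.38, and the members that fell numbered 5 without replicate 3.

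In the list of lipid and sterol metabolism 5 of 16 members rose and 3 fell (31.2% and 18.8%, against 15.4% and 15.3% of all genes). Among genes at 1 CPM or more 24.1% rose and 25.5% fell, so the share that fell lay below that background. The large changes were those of the sterol branch. SQLE, the squalene epoxidase of cholesterol synthesis, had 332, 309 and 299 CPM against 928, 1070 and 1090 CPM, which is -1.72 on the log2 scale (standard error 0.10, adjusted p = 2.41e-28). ACAT2, which makes acetoacetyl-CoA, had 144, 143 and 134 CPM against 478, 526 and 569 CPM (-1.90, standard error 0.10, adjusted p = 9.08e-36). SREBF2, the transcription factor of sterol synthesis genes, fell by 0.61 on the log2 scale. All 3 were lower in each passage with no overlap of groups, against 19.6% of all genes with lower non-overlapping groups, but their call largely fixes this. AGPAT1 of phospholipid synthesis rose by 0.80, the ceramide kinase gene CERK by 0.40, CPT1B by 0.35 and KDSR by 0.44 (a call lost without any one of the replicates), and the members that rose numbered 3 without replicate 2 and 2 without replicate 3.

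Of 24 lysosome and endosome genes 11 rose and 5 fell, with a median of 0.32. The share that rose was 45.8%, against 15.4% of all genes and 24.1% of those at 1 CPM or more, and the share that fell was 20.8%, near the 15.3% and 25.5% of these genes. ARSA, a lysosomal hydrolase, had 43.7, 50.1 and 51.0 CPM against 25.4, 25.6 and 23.3 CPM (log2 FC 0.96). SLC66A2 rose by 0.89 and the membrane protein gene CD63 by 0.82. STX7, a SNARE protein of late endosomes, fell by 0.55, IGF2R by 0.39, VTA1 (lost without replicate 2 or 3) by 0.38 and SNX9 by 0.37 on the log2 scale. The members that fell numbered 3 without replicate 2 and also without replicate 3.

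Of 16 interferon and cytokine response genes, 7 rose and 1 fell (median 0.48), which is 43.8% and 6.25% against 15.4% and 15.3% of all genes, and 3 of the 7 were DEGs. IRF1, a transcription factor induced by interferon, had 85.7, 119 and 102 CPM against 41.8, 43.7 and 41.1 CPM (log2 FC 1.27, standard error 0.10), IRF5 had 252, 267 and 264 CPM against 114, 114 and 110 CPM (1.21), and APOL6 rose by 1.09. The receptor gene IFNGR1 was at -0.23, a call that was lost without replicate 1 (-0.22) and without replicate 2 (-0.16). Of 9 genes of the MHC region and antigen presentation 5 rose and 1 fell (median 0.43), which is 55.6% and 11.1% against the same shares of all genes. The peptide transporter gene TAP1 had 644, 792 and 734 CPM against 514, 497 and 495 CPM (log2 FC 0.53), the class II gene DLA-DOA rose by 0.81, the class I gene DLA88 by 0.50 and TAPBP by 0.43, and the chaperone gene CANX fell by 0.50 on the log2 scale. MHC genes have close copies, so how their reads were shared among these is uncertain.

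Of 12 immediate early and stress-induced regulators 2 rose (IRF1 and KLF10) and 5 fell (median -0.15; 16.7% and 41.7%, against 15.4% and 15.3% of all genes), with EGR1, NAB2, SGK1 and TNFAIP3 among those that fell. The members that fell numbered 3 without replicate 2 and also without replicate 3. Of 22 genes of actin, adhesion and cell shape 8 rose and 4 fell (median 0.11). That is 36.4% and 18.2% against the same shares, and against 24.1% and 25.5% of genes at 1 CPM or more. MTSS1 and the CDC42 activator FGD2, with 119 ± 6.73 CPM (SD, n = 3) against 33.3, 31.2 and 32.9 CPM, led the rise, followed by DEF6 (0.76) and PARVG (0.70). AKAP12 and the focal adhesion kinase gene PTK2, with 4.39, 3.78 and 5.30 CPM against 11.7, 10.1 and 11.1 CPM, led the fall, followed by ARHGAP18 (-0.57) and UTRN (-0.56). The call of ARHGAP18 was lost without replicate 2 (-0.57) and without replicate 3 (-0.54).

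Of 27 chromatin and transcription regulators 3 rose and 2 fell (median 0.09), which is 18.5% against 30.8% of all genes. In a fit of the 6 libraries alone 9 rose and 4 fell. TLE4 was at 0.36, CBX7 at 0.41, BRD2 at 0.27, L3MBTL3 at -0.36 and L3MBTL2 at -0.52, and without replicate 3 the calls of TLE4, CBX7, BRD2 and L3MBTL3 were lost. Of the genes that the study discusses by name, DSE rose by 0.33 (0.26 and not past the test without replicate 3) and NHSL1 was a DEG at -1.13 (adjusted p = 0.00311, 10 to 14 reads per Ibr + AS library).

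**Figure D3:**
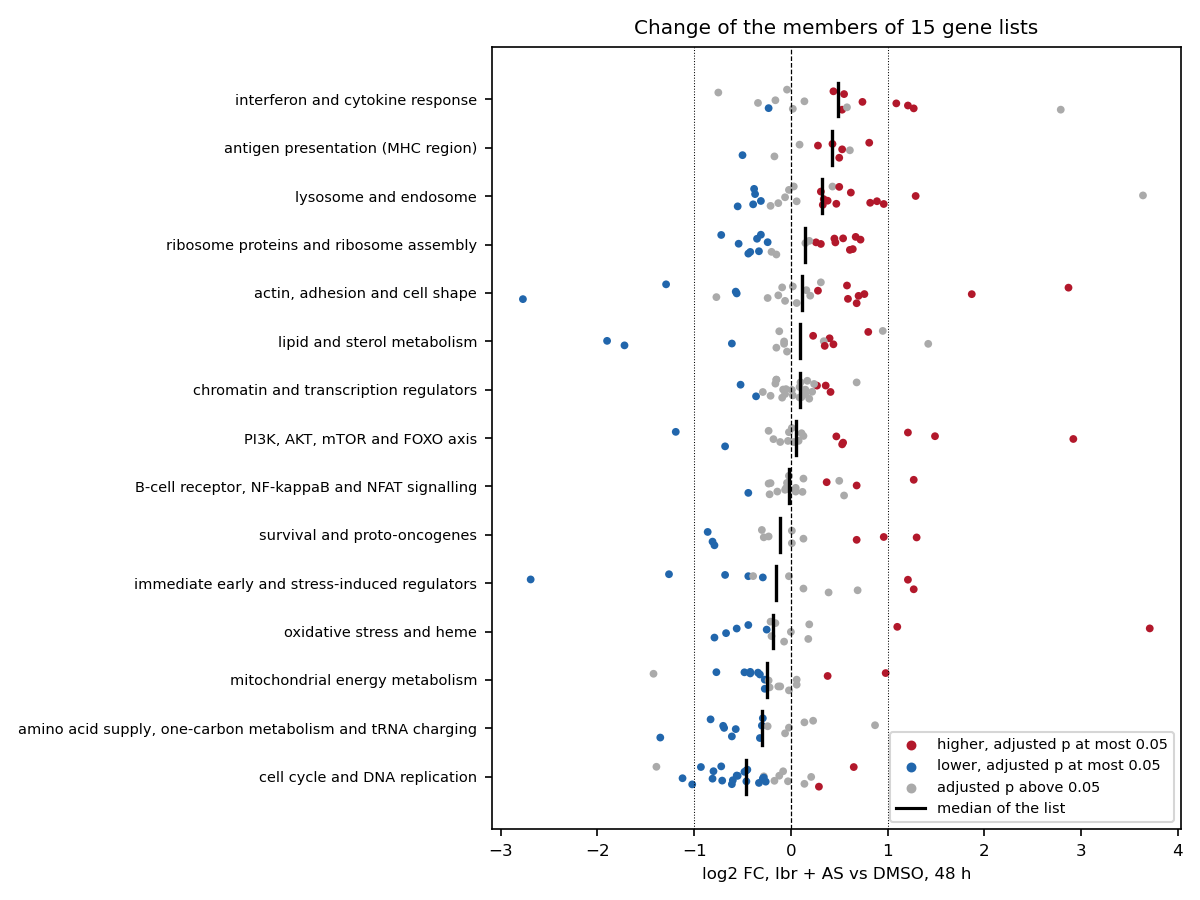
Each point is the log2 FC between Ibr + AS and DMSO at 48 h of 1 member of 15 gene lists, red where it rose, blue where it fell and grey where its adjusted p was above 0.05, and black lines mark the median of each list. Cell cycle and DNA replication lies lowest with a median of -0.46, and interferon and cytokine response highest with 0.48.

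Markers of other cell types were read beside these groups. For comparison, 15.4% of all genes rose and 15.3% fell, and 24.1% and 25.5% of those at 1 CPM or more. Of 6 myeloid genes 3 rose: LYZ, encoding lysozyme, with 168, 192 and 191 CPM against 65.0, 81.4 and 81.0 CPM, CSF2RB (0.55) and TREML2 (0.52). NCF4 had 189, 209 and 200 CPM against 172, 186 and 157 CPM (log2 FC 0.22, adjusted p = 0.0688), DCSTAMP stayed below 1 CPM, and TREM2 had no read with Ibr + AS. CD226 rose among the 7 T or NK cell markers, from 2, 0 and 0 reads in DMSO to 4, 7 and 3 reads. Of 8 markers of stroma, epithelium or pigment cells GJA1 fell (1.88, 2.32 and 1.51 CPM against 5.70, 6.31 and 4.70 CPM), ESRP1 was at 18.4 to 21.7 CPM and PMEL at 1.43 to 2.52 CPM in the 6 libraries, and COL14A1, CTHRC1, GRHL2, MLANA and SOX10 stayed below 1 CPM. The part of cell composition in the results was not tested.

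The single inhibitors were read at 48 h, at the same doses and against the same DMSO libraries. Over the 908 higher DEGs of the combination the median log2 FC was 0.69 for Ibr and 0.30 for AS, and over the 527 lower DEGs it was -0.82 and -0.49. These comparisons share the DMSO libraries, so their likeness is not independent. The cell cycle list, at -0.46 with the combination, had medians of -0.01 with Ibr and 0.02 with AS, and the interferon list 0.04 and 0.02 in place of 0.48. CDK2 had a log2 FC of -0.32 with Ibr and -0.21 with AS, and IRF1 of 0.42 and 0.17.

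Tested directly, Ibr + AS differed from Ibr in 2.77% of the genes and from AS in 5.37% as DEGs. HMOX1 had 9.31, 10.2 and 9.64 CPM with Ibr and 4.49, 4.88 and 5.34 CPM with AS, all below the 48.8 CPM of the lowest Ibr + AS library (log2 difference 2.58 from Ibr and 3.56 from AS). FBXO32 did not follow this pattern, with log2 FC of 3.03 for Ibr, 1.36 for AS and 2.92 for the combination, and a log2 difference of -0.11 between combination and Ibr. For NAB2, at -1.47 with Ibr alone, that difference was 0.22 (adjusted p = 0.392). GOLM1 had 102, 82.4 and 113 CPM with Ibr, below each Ibr + AS library, and its difference of 0.60 passed the adjusted p limit (9.56e-05) but not the limit on size. ACAT2 was a DEG with each treatment, at -1.46 with Ibr, -1.14 with AS and -1.90 with both.

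The departure from additivity, the log2 FC of the combination less the sum of those of the single inhibitors, passed the DEG limits in 2.28% of the genes. DEPTOR and SQSTM1 had single changes that were not upward. DEPTOR was at -0.25 with Ibr and -0.47 with AS against 1.49 with both, a departure of 2.21 (standard error 0.41, adjusted p = 3.41e-05). SQSTM1 had 87.3, 70.4 and 77.8 CPM with Ibr, 115, 93.6 and 102 CPM with AS and 217, 231 and 222 CPM with both, a departure of 1.53 (standard error 0.14, adjusted p = 1.46e-14). HMOX1 (2.42), MTSS1 (2.06), TMEM71 (1.09) and KCP (1.08) also rose beyond the sum, and SERPINB2 (-1.80), SNTB1 (-1.31) and RGS22 (-1.22) fell beyond it. For FGD2 (0.70) and PLA2G6 (0.96) the departure passed the adjusted p limit but not the limit on size. MYC, with log2 FC of 0.25 for Ibr and -0.08 for AS, had a departure of 0.80 (adjusted p = 6.9e-06). In ACAT2 the departure was 0.70 in the other direction, which means that the combination lowered it by less than the sum.

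**Figure D4:**
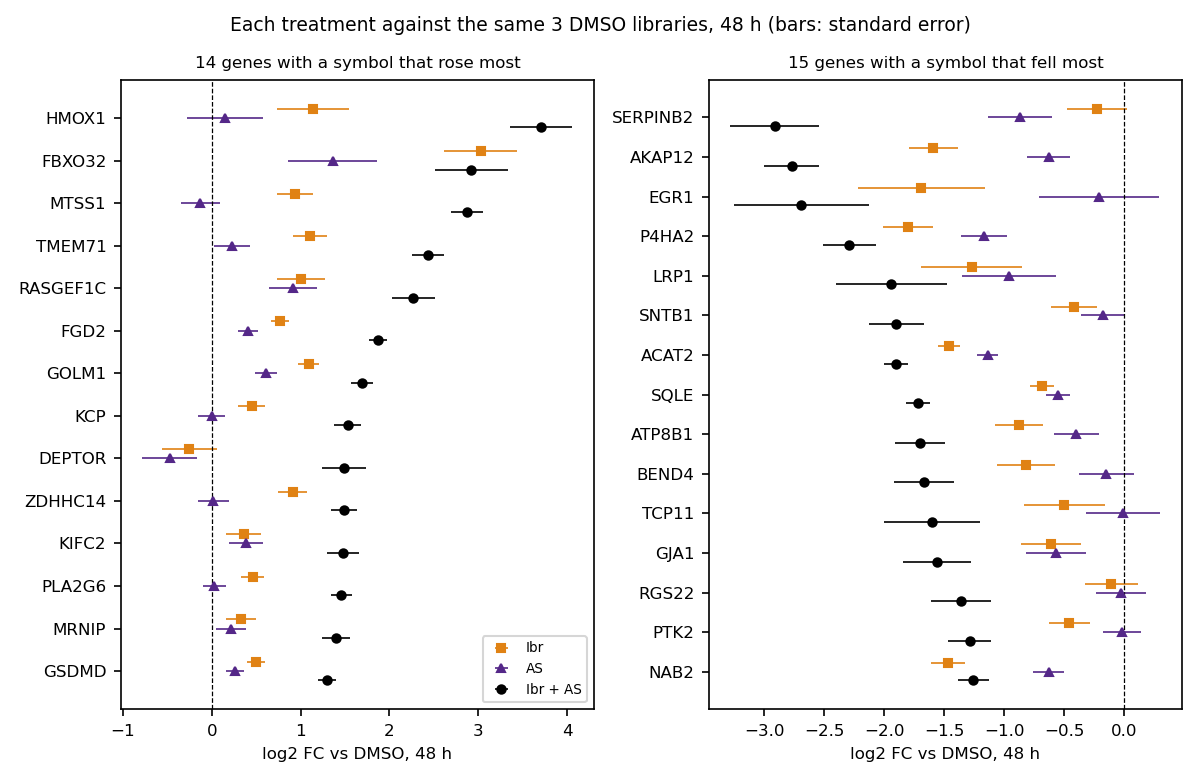
Log2 FC against DMSO at 48 h of the 14 most raised (left) and 15 most lowered (right) DEGs with a symbol and a mean of at least 1 CPM, for Ibr (squares), AS (triangles) and Ibr + AS (circles), with bars of 1 standard error. In DEPTOR the single inhibitors lie at -0.25 and -0.47 and the combination at 1.49, whereas in FBXO32 Ibr (3.03) and Ibr + AS (2.92) lie together.

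The change at 48 h was then set beside those at 24 and 72 h, which rest on other libraries. For 1 DMSO library of 24 h, taken as replicate 3, the labels disagree on the passage. Of the 908 higher DEGs, 629 were also higher DEGs at 24 h and 323 at 72 h, against 6.16% and 3.23% of all genes. Of the 527 lower DEGs, 244 were lower DEGs at 24 h and 304 at 72 h, against 2.09% and 4.3% of all genes. The median log2 FC of the higher DEGs was 1.46 at 24 h, 1.55 at 48 h and 0.85 at 72 h, and that of the lower DEGs was -1.0, -1.45 and -1.30. The 48 h values chose these genes and are no test of the order. By a test of the difference, the effect at 48 h departed from that at 24 h in 0.509% of the genes and from that at 72 h in 3.29%, with DEG limits.

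In P4HA2, ENSCAFG00000014490 and ENSCAFG00000011762 the level in DMSO moved between times far more than that with Ibr + AS. P4HA2, which hydroxylates collagen, was at 2.83, 1.72 and 1.78 CPM in DMSO at 24 h, at 9.80, 8.56 and 12.3 CPM at 48 h and at 12.3, 13.1 and 8.71 CPM at 72 h. With Ibr + AS its mean was 2.11, 2.10 and 1.99 CPM at the 3 times. Its log2 FC was -0.01 at 24 h and -2.29 at 48 h, a difference of -2.28 (standard error 0.36, adjusted p = 1.33e-05). ENSCAFG00000014490 showed the same course, from a mean of 3.47 CPM in DMSO at 24 h over 35.5 to 84.2 CPM, against 0.815, 0.505 and 0.892 CPM with Ibr + AS. ENSCAFG00000011762 went from 4.45 over 20.3 to 44.9 CPM in DMSO. In ACAT2 both moved, with means of 231, 524 and 518 CPM in DMSO and of 116, 141 and 160 CPM with Ibr + AS, and its effect was larger at 48 than at 24 h by 0.91 on the log2 scale (adjusted p = 4.76e-07).

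In other genes the rise with Ibr + AS was gone by 72 h (MYC and PLA2G6) or smaller (MTSS1 and TMEM71). MYC had means of 136, 184 and 271 CPM in DMSO at 24, 48 and 72 h and of 358, 358 and 270 CPM with Ibr + AS, so that its log2 FC went from 1.39 over 0.96 to -0.01. The step from 48 to 72 h was -0.97 (standard error 0.13, adjusted p = 3.82e-08). PLA2G6 had means of 15, 15.7 and 26.4 CPM in DMSO and 44.7, 42.7 and 27.6 CPM with the inhibitors, and its step was -1.39 (adjusted p = 1.72e-10). MTSS1 and TMEM71 were highest at 24 h, with log2 FC of 3.87 and 3.53, and lower at 48 h and again at 72 h, when they were 1.54 and 1.07. HMOX1, by contrast, had a log2 FC of 3.36, 3.71 and 3.72 at the 3 times, and SERPINB2 of -2.94, -2.91 and -2.64, with no difference past the test.

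**Figure D5:**
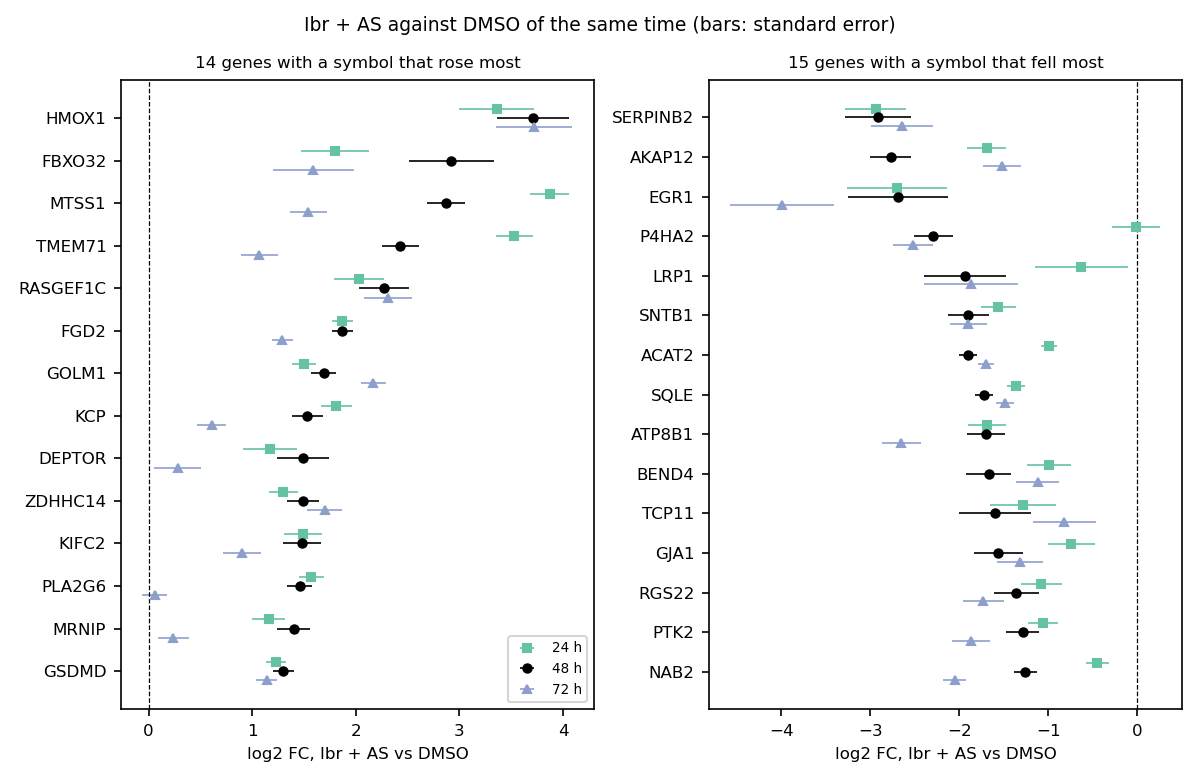
Log2 FC between Ibr + AS and DMSO of the same time at 24 h (squares), 48 h (circles) and 72 h (triangles) for the 14 most raised (left) and 15 most lowered (right) DEGs with a symbol and a mean of at least 1 CPM at 48 h, with bars of 1 standard error. P4HA2 goes from -0.01 at 24 h to -2.29 at 48 h, PLA2G6 from 1.46 at 48 h to 0.06 at 72 h, and HMOX1 stays between 3.36 and 3.72.

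The gene lists kept or lost their direction over time in different ways. In the cell cycle list 19 of 29 members fell at 24 h as at 48 h and 11 at 72 h, while 16.9% of all genes fell at 24 h and 14.5% at 72 h. The median went from -0.45 over -0.46 to -0.17. Interferon response genes that rose numbered 7 of 16 at each of the 3 times, against 17.1% of all genes at 24 h and 14.1% at 72 h, but 2 fell at 72 h and the median went from 0.51 over 0.48 to 0.19. For antigen presentation, 7 of 9 members rose at 24 h and 5 at 48 h, but 1 rose and 5 fell at 72 h, and the median went from 0.61 over 0.43 to -0.32. BCL2 went from -0.16 at 24 h over -0.81 to -1.12 at 72 h, and MYB from -0.35 over -0.79 to -1.48.

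The passages of the 2 groups at 48 h are not placed alike in the sequencing order. Numbers in the header of the count table restart once, and they place both libraries of replicate 1 in the first series and both of replicate 3 in the second, but split replicate 2, with DMSO in the first and Ibr + AS in the second. That this marks separate sequencing runs is an inference. Without the pair of replicate 2 at 48 h, 1191 DEGs were called, 687 higher and 504 lower, and with the series as a further term there were 1301, 799 higher and 502 lower. Both alternatives were added after the data had been seen.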

How the data were processed

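Poly-A RNA of CLBL-1 was sequenced on an Illumina instrument. The authors mapped the reads to CanFam3.1 with STAR 2.7.5a, counted reads per gene with its GeneCounts mode and deposited raw counts of 30424 Ensembl genes. Which strand column was kept is not given in the sources used here, so overlapping and antisense genes cannot be told apart. The design was paired: replicates 1, 2 and 3 are 3 passages named in the labels. For DMSO 24 h replicate 3 the title names the passage of replicate 2, but its passage field and library name give that of replicate 3, which was used. After removal of group means the Ibr + AS and DMSO libraries of 48 h correlated within replicates 1, 2 and 3 with r of 0.35, 0.234 and 0.169 over 10785 genes. Libraries of a group were no duplicates (chi-square per degree of freedom 4.47 to 18.4).

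The analysis used R 4.3.3 and edgeR 4.0.16 (TMM factors, robust quasi-likelihood fit, Benjamini-Hochberg adjustment). One fit held 35 libraries, without Ibr 72 h replicate 3 as in the study, with passage and the 12 groups as terms, and genes with at least 2 reads. On simulated data it called 200 of 200 genes changed by a log2 FC of 2 for Ibr + AS at 48 h, with 2 calls among the other genes (18035 genes in all). The changed genes were drawn only from those well above the floor of 3 counts, and the simulated spread was that of the same fit. The check therefore does not cover changes in genes at a few reads per library. The alternatives were DESeq2 1.42.0, RLE factors, filterByExpr, at least 1 read, all 36 libraries, no passage term, each passage left out, the 6 libraries alone, glmTreat, and those added later. Where a group had at most 3 reads in each library, folds are bounds.

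Symbols came from the identifier and symbol columns of the given parts of the study's supplementary tables, which pair 1068 genes. Named are 15 genes in each direction, the largest changes among DEGs that have a symbol, keep their direction in each passage and average at least 1 CPM, up to 4 members of each list with the lowest adjusted p in each direction, members given as not past the test, NHSL1, DSE, PIK3R1, MYC, BCL2 and MYB, and 4 genes without a symbol. FBXO5, TCF19, VARS1, TAGAP, PLEC and others outside this rule, among them RPL3, RPS10, RPS12, RPS18, DLA-DRA and the marker genes, were named after their values were seen or as markers. The genes, lists and markers were chosen with earlier results of these data known. One gene that the rule would name is not reported here. Promoter motifs were not analysed here.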

Additional observations from a re-analysis of the deposited data

Results flagged for a closer look

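Effects that differed between incubation times, or between the combination and the sum of the single inhibitors, by a contrast of the same edgeR fit with the DEG limits, are listed here for named genes and list members. All are log2 values from groups of 3 libraries.

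From 24 to 48 h the effect of Ibr + AS changed by -1.10 for TMEM71, by -2.28 for P4HA2, by -4.04 for ENSCAFG00000014490 and by -2.98 for ENSCAFG00000011762. In P4HA2 and the 2 genes without a symbol the level moved in DMSO, as described above, and in TMEM71 the Ibr + AS mean went from 93.1 to 48.3 CPM.

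From 48 to 72 h the effect changed by -1.33 for MTSS1, by -1.36 for TMEM71, by -1.21 for DEPTOR, by -1.39 for PLA2G6, by -1.16 for MRNIP, by -1.13 for DLA-DOA, by -1.04 for DLA-DRA, by -1.26 for PSAT1, by -1.10 for ARSA and by -1.12 for TAGAP. It went up by 1.24 for AKAP12, by 1.00 for TCF19, by 1.05 for VARS1 and by 1.09 for PLEC. DLA-DOA and DLA-DRA both belong to MHC class II, and DLA-DRA went from a log2 FC of 0.28 at 48 h to -0.76 at 72 h.

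At 48 h the combined effect exceeded the sum of the single effects by 2.42 for HMOX1, 2.06 for MTSS1, 1.09 for TMEM71, 1.08 for KCP, 2.21 for DEPTOR and 1.53 for SQSTM1. The departure was -1.80 for SERPINB2, -1.31 for SNTB1, -1.22 for RGS22 and -1.14 for FBXO5, an inhibitor of the anaphase-promoting complex whose log2 FC was 0.09 with Ibr, 0.25 with AS and -0.80 with both.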

How the results depend on the processing

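For Ibr + AS against DMSO at 48 h, where the passage block is part of the design, a fit with no replicate block called 1429 DEGs in place of 1435. RLE factors gave 1440, filterByExpr 1306, a minimum of 1 read 1413, all 36 libraries 1433, the 6 libraries alone 1395 and DESeq2 1331. A test against the limit on size itself (glmTreat) called 429 DEGs, 276 higher and 153 lower, 45 against Ibr, 214 against AS, 9 for the departure from additivity, 6 for 48 h less 24 h and 32 for 72 h less 48 h. Leaving out replicate 1, 2 or 3 gave 1193 to 1412 DEGs, 703 to 872 higher and 490 to 540 lower. It gave 324 (without replicate 2) to 585 DEGs against Ibr in place of 518, 780 to 1043 against AS, 286 to 485 for the departure, 86 to 131 for 48 h less 24 h and 466 to 753 for 72 h less 48 h. Without the 48 h pair of replicate 2, a setting chosen after seeing the data, 272 departures were called in place of 425. The cause was not tested. Of 162 single-gene results, 107 stayed on their side of the threshold under every alternative except glmTreat, which was not run per gene, and 0 changed sign. The pair of replicate 2 left out cost 34 calls, and leaving out replicates 1, 2 and 3 cost 10, 28 and 39. Of 360 counts of list members, 11 moved by over 1.5 times without the pair of replicate 2, and 3, 6 and 10 without replicates 1, 2 and 3. The fit of the 6 libraries moved 5, and DESeq2, RLE factors, filterByExpr, no replicate block and the series term moved 1 or 2 each. Chromatin regulators that rose numbered 9 in the fit of the 6 libraries, 5 with DESeq2 and 0 without replicate 3, in place of 3.

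Limits: 3 passages of 1 line carry all p-values. Genes at a few reads per library, such as FBXO32, SERPINB2, LRP1 and TCP11, have a floor of 0.225 to 0.291 CPM (3 counts). Symbols cover 1068 genes only, so most DEGs are unnamed here.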
